A study of Mus musculus with 6 samples.

Results

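Genes for the breakdown of glucose, its synthesis and its storage as glycogen were compared between livers of 3-week-old male mice with and without loss of the transcription factor Srf. The set named 33 genes, chosen by their place in the pathway, though with earlier results of these data known, and each was read from the probe sets that the array annotation assigns to that 1 symbol alone. Of the 33, 29 had such a probe set, and all 29 passed the filter on dim probe sets, out of 13144 genes tested. Gpi1, Pfkfb1, Eno1 and Gapdh had none and were not tested. The mutant group was 3 mice of genotype Srf loxP/loxP AlfpCre, and the control group 3 mice of genotype Srf loxP/+ AlfpCre. Both groups thus carried AlfpCre, a transgene in which control elements of the albumin and alpha-fetoprotein genes drive Cre recombinase, and at least 1 loxP-flanked copy of Srf. A mouse with neither Cre nor a loxP copy was not among them. Total liver RNA of each mouse was hybridised to 1 Affymetrix array, so each value below comes from 1 animal.

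The liver takes up glucose through the transporter GLUT2, traps it by phosphorylation, and either degrades it to pyruvate or stores it as glycogen. In fasting the same organ releases glucose, first from glycogen and then by gluconeogenesis from lactate, amino acids and glycerol. Most glycolytic steps run both ways and share their enzymes between the pathways. Phosphofructokinase and pyruvate kinase act in the glycolytic direction only, while pyruvate carboxylase, phosphoenolpyruvate carboxykinase, fructose-1,6-bisphosphatase and glucose-6-phosphatase bypass the one-way steps in the other direction.

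The mutant arrays differed more among themselves than the control arrays did. Over the probe sets tested, correlations between arrays were 0.827 to 0.907 among mutants and 0.937 to 0.941 among controls. The ratio of 3′ to 5′ array control probe sets, which rises with RNA degradation or incomplete labelling, was 5.33, 2.36 and 2.92 for Actb in mutants 1 to 3, against 1.91, 1.68 and 2.36 in controls 1 to 3. Mutant 1 was highest in this ratio. The Gapdh ratio was 1.01, 0.773 and 0.866 in mutants, against 0.711, 0.679 and 0.756 in controls, with no overlap and an exact permutation p of 0.1. The Pcx ratio was 17.3, 6.39 and 10.5 in mutants, against 4.94, 4.44 and 7.03 in controls, with overlap. The index used below is the mean log2 of the Actb, Gapdh and Pcx ratios, and Gapdh and Pcx are themselves genes of the set. It gave an exact permutation p of 0.2 between the groups, where 0.1 is the smallest that 3 against 3 arrays allow. Srf itself read 4.17, 5.24 and 2.54 on the log2 scale in mutants, against 5.31, 5.14 and 5.11 in controls, with its brightest probe set. No source used here says whether that probe set lies in the deleted part, so it does not check the genotype. Of 14 hepatocyte markers, 12 had a probe set and all 12 were above background. Their summed signal was 72610 to 89290 in mutants, against 58610 to 66160 in controls, with no overlap. In the deposited values without scaling it was 61650 to 78200 in mutants, against 67730 to 75910 in controls, which overlap. Stellate cell markers, with 11 of 12 above background, summed to 958.9 to 3750 in mutants, against 3145 to 3343 in controls, and the lowest sum was that of mutant 1. Their median difference was -1.01, with 9 of 12 negative and 3 positive, Des (0.75), Rgs5 (0.21) and Timp1 (1.14). The collagen genes Col1a1 (-2.53), Col1a2 (-1.93) and Col3a1 (-3.56) lay entirely lower in mutants, 3 of 12 against 10.8% of all genes. Cholangiocyte markers, with 2 of 7 above background, summed to 62.2 to 84.6 in mutants, against 39.4 to 54.3 in controls, with no overlap as scaled and with overlap in the deposited values. The part of RNA quality and of cell makeup in the differences below was not tested beyond the fits stated beside them. In whole tissue, fewer cells of a type and less RNA per cell cannot be told apart.

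No gene of the set differed between mutants and controls after adjustment over all probe sets by limma, 0 of 29 against 0.114% of all genes tested. At an unadjusted p under 0.05, 5 of 29 (17.2%) passed, against 14.4% of all genes. Of these 5, Aldoa was higher in mutants, 1 of 29 (3.45%) against 7.36% of all genes. Pfkfb3, Pklr, Ppp1r3c and Khk were lower, 4 of 29 (13.8%) against 7.01%. In 10 of 29 (34.5%) the mutant arrays lay entirely above or entirely below the control arrays, against 24.9% of all genes. Mutants were the higher group in 5 of 29 (17.2%, against 14.1% of all genes) and the lower in 5 (17.2%, against 10.8%). The median log2 difference of the 29 was -0.14, against 0.06 over all genes, with 14 positive and 15 negative, where 54.1% of all genes were positive. The share at an unadjusted p under 0.05 in either direction lay near the background. By direction the shares rest on 1 gene and on 4 genes, and no test compared the set with all genes. The description that follows is of single genes with their intervals.

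**Figure D1:**
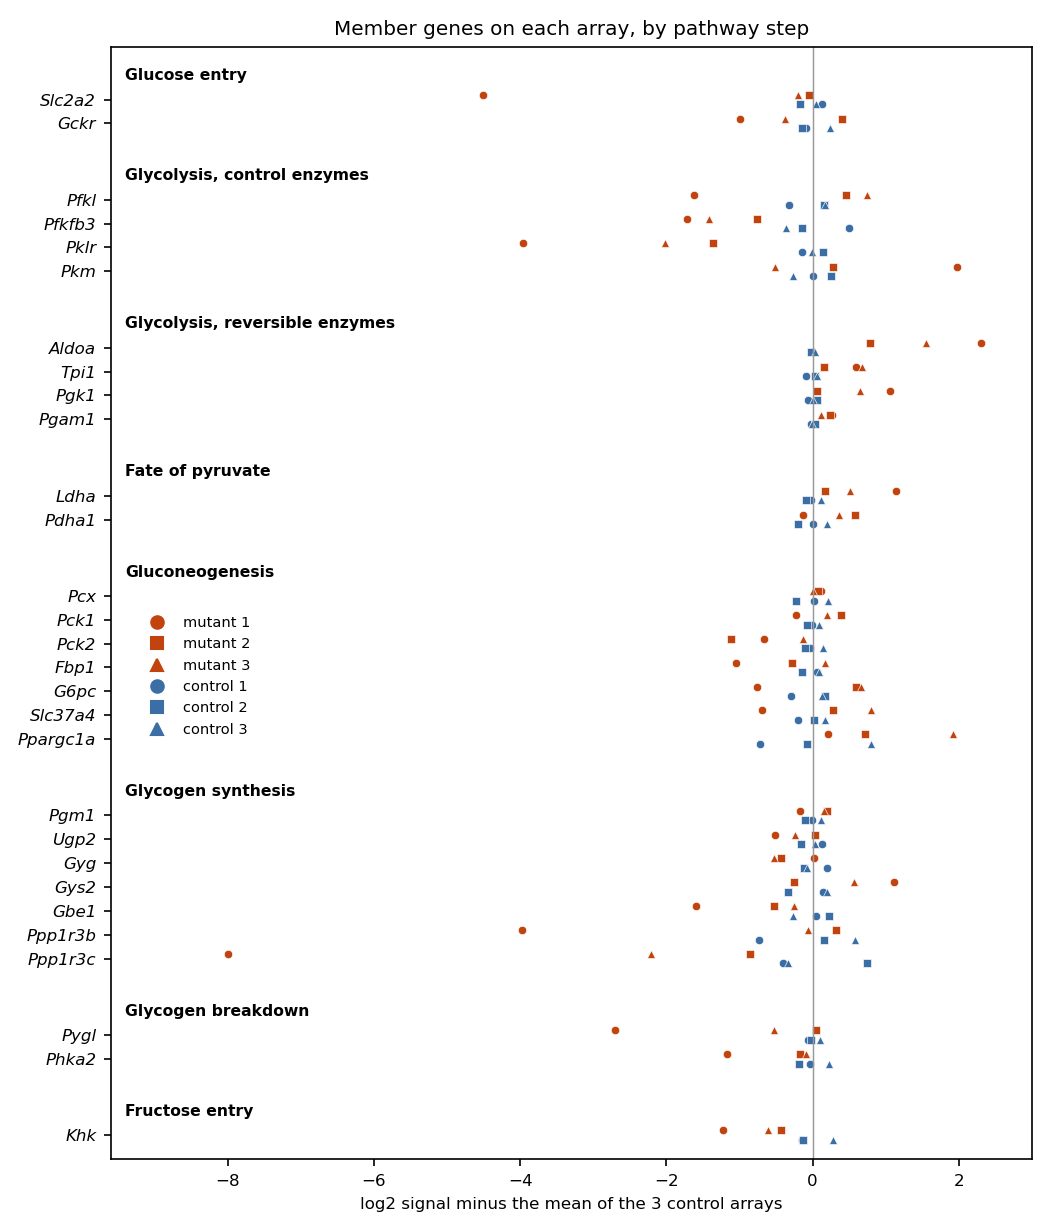
Log2 signal of each of the 29 genes on each array, minus the mean of the 3 control arrays, by pathway step. Mutants (orange) are spread much more widely than controls (blue), and mutant 1 (orange circles) is the farthest mutant array for 21 of 29 genes.

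Mutant 1 stood apart across the set. It was the lowest of all 6 arrays for 17 of 29 genes (58.6%), against 31.6% of all genes, and the highest for 6 of 29 (20.7%), against 30.9%. It was the mutant array farthest from the control mean for 21 genes, and mutants 2 and 3 for 4 each. The genes where it was lowest include Slc2a2, Pygl and Ppp1r3b, and those where it was highest include Aldoa, Pgk1 and Ldha. For that reason the value without mutant 1 is given for each gene of the set whose difference it moved by over 1.5 times, and for some others.

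Among genes of glucose entry, Slc2a2, which encodes GLUT2, read 6.55, 11.01 and 10.87 in mutants, against 11.19, 10.89 and 11.11 in controls (log2 signal). Only mutant 1 lay outside the range of the other arrays, about 4 log2 units below them. The difference of -1.59 ± 1.05 (SE, limma adjusted p = 0.480) became -0.12 without mutant 1. Gckr, a regulatory protein of liver glucose metabolism, was at 8.34, 9.73 and 8.95 in mutants, against 9.24, 9.18 and 9.56 in controls, and its groups overlapped (difference -0.32, adjusted p = 0.662, and a difference of 0.0151 without mutant 1).

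Of the control enzymes of glycolysis, Pklr gave the lowest difference. It encodes the liver and red cell pyruvate kinase, which catalyses the last step of glycolysis. Its brightest probe set read 3.77, 6.37 and 5.71 in mutants, against 7.59, 7.87 and 7.72 in controls. Every mutant lay at least 1 log2 unit below every control, and the difference of -2.44 ± 0.60 is 5.44-fold lower in mutants (95% interval -3.82 to -1.07, adjusted p = 0.242). The other Pklr probe sets gave -3.51 and -4.18, also without overlap, though the last was below background in mutants. Without mutant 1 the difference was -1.69 with an adjusted p of 0.0365, and without mutant 2 it was -2.99 with an adjusted p of 0.0458, so the call depends on which library is left out. With the 3′ to 5′ index as a covariate it was -0.92 (adjusted p at or above 0.929, as for every gene of the set). Erythroid markers, since red cell precursors use the same gene, summed to 66.7 to 395 in mutants, against 287 to 519 in controls. Those groups overlapped, 3 of 7 erythroid markers were above background, and their part in the Pklr result was not tested.

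Pfkfb3, which makes the activator of phosphofructokinase fructose-2,6-bisphosphate, was at 3.47, 4.42 and 3.77 in mutants, against 5.68, 5.04 and 4.82 in controls. The groups did not overlap, and the difference was -1.30 ± 0.38 (95% interval -2.18 to -0.41, adjusted p = 0.294), or -1.09 without mutant 1. A dimmer Pfkfb3 probe set, below background in mutants, gave -0.76 with overlapping groups (adjusted p = 0.497). Pfkl, the liver phosphofructokinase subunit, was at 5.60, 7.68 and 7.96 in mutants, against 6.90, 7.37 and 7.39 in controls. Its mutants straddled the controls (difference -0.14, adjusted p = 0.921), and without mutant 1 the difference was 0.60. Pkm, the pyruvate kinase gene of most tissues other than liver, read 7.04, 5.33 and 4.54 in mutants, against 5.07, 5.31 and 4.80 in controls. Only mutant 1 was high, and the difference of 0.58 (adjusted p = 0.632) was -0.12 without it.

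**Figure D2:**
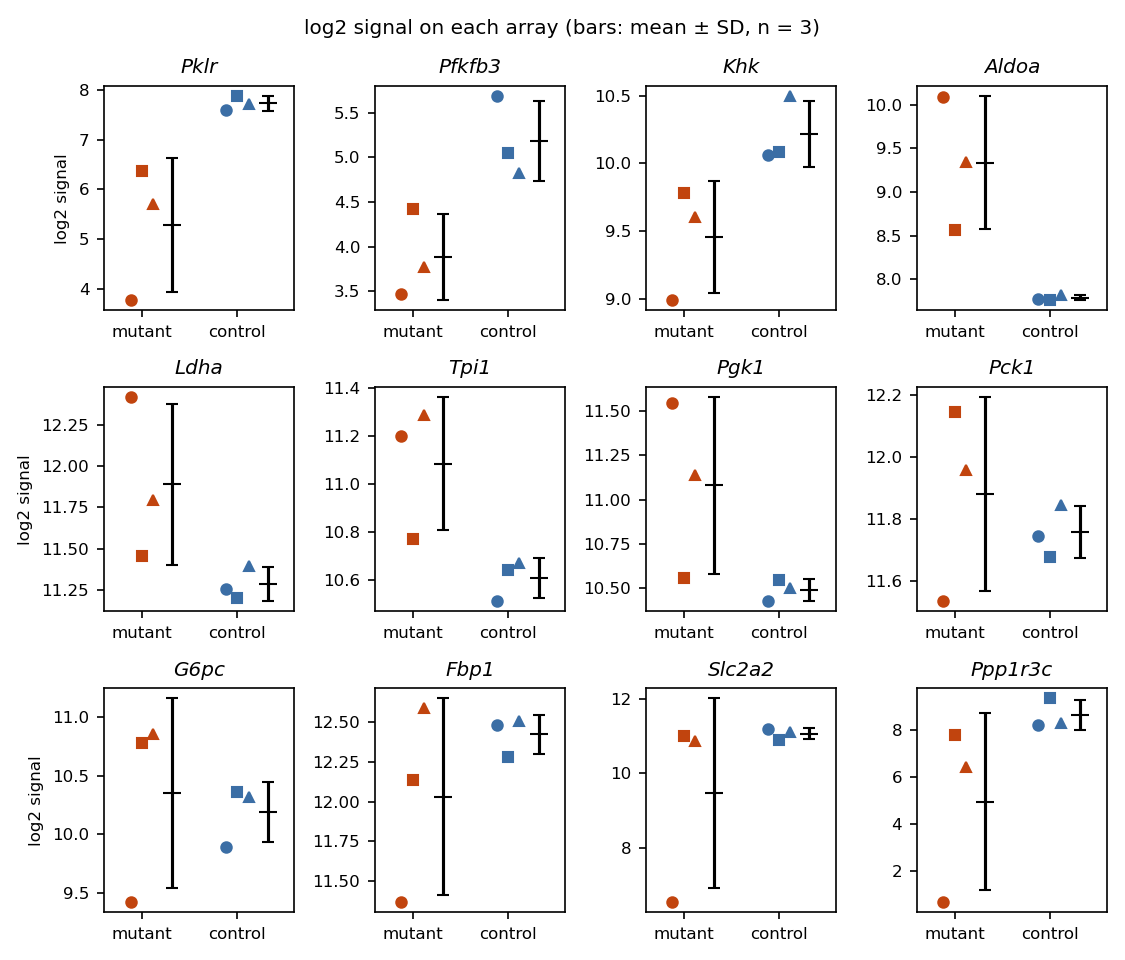
Log2 signal of 12 genes on each array, mutants left and controls right, with the mean ± SD of 3 arrays beside the points. Pklr, Pfkfb3, Khk and Ppp1r3c lie lower and Aldoa, Ldha, Tpi1 and Pgk1 higher in all mutants, while Pck1, G6pc, Fbp1 and Slc2a2 overlap; each panel has its own scale.

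All 4 genes of the set measured in the reversible middle of glycolysis were higher on every mutant array than on any control array. That held for 14.1% of all genes, and none of the 4 passed the adjusted test. Outside the set, the aldolase gene Aldoc lay entirely lower in mutants (-1.53, limma adjusted p = 0.165). The enolase gene Eno3 lay entirely higher (1.01, adjusted p = 0.326). Aldoa, an aldolase, gave the largest positive difference of the 29 genes by their brightest probe sets. It read 10.09, 8.57 and 9.34 in mutants, against 7.78, 7.77 and 7.82 in controls, a difference of 1.55 ± 0.37 or 2.92-fold (95% interval 0.70 to 2.39, adjusted p = 0.231). The controls were within 0.05 log2 units of each other and the mutants within 1.52. All 5 Aldoa probe sets gave 1.38 to 1.59 without overlap, but all are of the type that may also detect related sequences. Without mutant 1 the difference was 1.17 (adjusted p = 0.101), without mutant 2 it was 1.93 (adjusted p = 0.0269), and with the index it was 0.69.

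Tpi1, triosephosphate isomerase, was at 11.20, 10.77 and 11.28 in mutants, against 10.51, 10.64 and 10.67 in controls (difference 0.48, adjusted p = 0.373). Its 3 probe sets gave 0.45 to 0.63, each without overlap. Pgk1, phosphoglycerate kinase, was at 11.55, 10.56 and 11.14 in mutants, against 10.43, 10.55 and 10.50 in controls (difference 0.59, adjusted p = 0.376, with a difference of 0.36 without mutant 1 and 0.05 with the index). Mutant 2 lay just above the highest control, and 1 of the 3 Pgk1 probe sets overlapped. Pgam1, phosphoglycerate mutase, read 9.49, 9.46 and 9.34 in mutants, against 9.20, 9.25 and 9.21 in controls, the smallest difference of the 4 (0.21, adjusted p = 0.598). The separation of the groups in these genes depends on the scaling, and so does the sign of Pgam1. With the deposited values unscaled, the median of all genes was -0.39, Tpi1 came to 0.03, Pgk1 to 0.14 and Pgam1 to -0.24. Aldoa, at 1.10, was then the only gene of the set with mutants entirely above controls. After median centring the median of all genes was -0.17, Tpi1 came to 0.25, Pgk1 to 0.36 and Pgam1 to -0.02. Aldoa, at 1.31, was again the only such gene.

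Pyruvate is reduced to lactate by lactate dehydrogenase or oxidised by the pyruvate dehydrogenase complex. Ldha, the lactate dehydrogenase A subunit, was at 12.42, 11.45 and 11.80 in mutants, against 11.25, 11.20 and 11.40 in controls. Its groups did not overlap by a narrow margin, and the difference of 0.61 ± 0.27 (adjusted p = 0.368) was 0.34 without mutant 1 and 0.01 with the index. Pdha1, a subunit of pyruvate dehydrogenase, was at 8.52, 9.23 and 9.02 in mutants, against 8.67, 8.46 and 8.86 in controls, and overlapped (0.26, adjusted p = 0.618, and a difference of 0.46 without mutant 1).

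The sequences around the starts of 4 genes whose groups did not overlap are shown with 3 motifs of factors that read oxygen, glucose or Srf itself. Hypoxia-inducible factors bind around the core ACGTG, and the glucose sensor ChREBP binds a paired element whose units resemble CACGGG. Srf binds the CArG box. The windows are RefSeq sequences of GRCm38.p6, from 250 bases before to 50 after the start, with matches on either strand in capitals.
Aldoa, chr7:126799205-126799504, minus strand: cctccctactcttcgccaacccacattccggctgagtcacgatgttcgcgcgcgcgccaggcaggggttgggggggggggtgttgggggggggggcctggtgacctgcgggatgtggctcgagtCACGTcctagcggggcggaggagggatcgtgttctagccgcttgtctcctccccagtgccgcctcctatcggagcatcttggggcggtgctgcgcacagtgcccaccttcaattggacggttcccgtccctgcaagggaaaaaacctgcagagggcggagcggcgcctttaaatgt
Pgk1, chrX:106186850-106187149, plus strand: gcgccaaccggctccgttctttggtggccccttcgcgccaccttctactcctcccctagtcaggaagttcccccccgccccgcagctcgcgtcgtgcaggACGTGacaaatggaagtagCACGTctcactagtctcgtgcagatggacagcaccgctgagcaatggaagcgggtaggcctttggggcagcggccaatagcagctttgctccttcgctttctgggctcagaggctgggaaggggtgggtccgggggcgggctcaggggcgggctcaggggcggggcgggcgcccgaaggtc
Ldha, chr7:46845554-46845853, plus strand: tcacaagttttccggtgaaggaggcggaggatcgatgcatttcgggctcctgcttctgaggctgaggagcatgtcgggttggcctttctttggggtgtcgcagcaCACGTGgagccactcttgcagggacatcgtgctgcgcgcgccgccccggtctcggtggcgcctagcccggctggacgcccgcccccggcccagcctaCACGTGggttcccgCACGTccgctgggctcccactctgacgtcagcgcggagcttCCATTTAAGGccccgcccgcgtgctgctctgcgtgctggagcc
Pklr, chr3:89136373-89136672, plus strand: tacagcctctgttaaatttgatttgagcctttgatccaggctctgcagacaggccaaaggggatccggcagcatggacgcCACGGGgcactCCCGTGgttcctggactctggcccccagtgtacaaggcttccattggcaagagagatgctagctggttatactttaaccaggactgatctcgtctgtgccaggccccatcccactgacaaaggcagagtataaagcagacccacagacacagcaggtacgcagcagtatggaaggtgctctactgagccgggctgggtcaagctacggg
In Aldoa, 1 of 3 windows in the table, the capitals are 1 ACGTG on the opposite strand at -126 to -122. In Pgk1 they are ACGTG at -150 to -146 and, on the opposite strand, at -131 to -127. In Ldha, 1 of 2 windows, ACGTG is found 5 times over both strands, since a CACGTG holds it on each, and a CArG box lies at 8 to 17 after the start. In Pklr, the downstream of 2 windows, CACGGG lies at -170 to -165 and on the opposite strand at -159 to -154. A window was matched for 27 of the 29 measured genes. ACGTG was in a window of 4 of 5 genes with mutants entirely higher, 3 of 5 with mutants entirely lower and 7 of 17 that overlapped, against 19.6% of 32851 windows of all genes. CACGGG was in 1 of 5, 2 of 5 and 7 of 17 of these groups, against 10.1% of all windows. Ldha alone of the 27 held a CArG box, against 1.63% of all windows. A gene may have several windows, so shares of genes and of windows are not the same measure.

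Of the 7 genes of gluconeogenesis, 5 had positive and 2 negative differences, where 54.1% of all genes had positive ones. The groups overlapped in all but Pck2. The signs of Pcx, Pck1, G6pc and Slc37a4 depend on the scaling. With the deposited values unscaled they were at -0.39, -0.33, -0.29 and -0.32, where the median of all genes was -0.39. After median centring they were at -0.17, -0.11, -0.0688 and -0.10, where that median was -0.17. Pck1, the cytosolic phosphoenolpyruvate carboxykinase, read 11.53, 12.15 and 11.96 in mutants, against 11.75, 11.68 and 11.85 in controls. The groups overlapped, and the difference of 0.12 had a 95% interval of -0.39 to 0.64 (adjusted p = 0.798, and a difference of 0.30 without mutant 1). The 2 dimmer Pck1 probe sets gave -0.48 and -0.93, the other direction. G6pc, the catalytic subunit of glucose-6-phosphatase, was at 9.42, 10.78 and 10.86 in mutants, against 9.90, 10.36 and 10.32 in controls. Mutants 2 and 3 lay above all controls and mutant 1 below them, so the difference of 0.16 (95% interval -0.74 to 1.06, adjusted p = 0.853) was 0.63 without mutant 1 (adjusted p = 0.210). It was 0.96 with the index (adjusted p = 0.929), 0.98 with the Actb ratio (adjusted p = 0.751) and 0.59 with array weights (adjusted p = 0.104). Those weights were 0.205, 0.464 and 2.92 for mutants 1 to 3, so mutant 3 counted most.

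Slc37a4, which carries glucose 6-phosphate to that enzyme, likewise had mutants 2 and 3 above all controls and mutant 1 below them, at 9.28, 10.26 and 10.77 in mutants, against 9.78, 9.999 and 10.15 in controls (difference 0.13, adjusted p = 0.877). That difference was 0.54 without mutant 1, 0.70 with the index, 0.75 with the Actb ratio and 0.66 with array weights, where mutant 3 again counted most. Fbp1, the liver fructose-1,6-bisphosphatase, was at 11.37, 12.14 and 12.59 in mutants, against 12.48, 12.28 and 12.50 in controls (difference -0.39, 95% interval -1.11 to 0.33, adjusted p = 0.549, and a difference of -0.0583 without mutant 1). Pcx, pyruvate carboxylase, was at 9.45, 9.40 and 9.33 in mutants, against 9.35, 9.11 and 9.54 in controls (difference 0.06, adjusted p = 0.901, and a difference of 0.0348 without mutant 1). For G6pc and Fbp1 the intervals include differences of about 1 log2 unit. Pck2, the mitochondrial carboxykinase, was a dimmer gene at 3.93, 3.49 and 4.46 in mutants, against 4.56, 4.5 and 4.74 in controls. Its groups narrowly missed each other (difference -0.64, adjusted p = 0.417).

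Ppargc1a encodes PGC-1alpha, a coactivator of the gluconeogenic genes in fasting. It was at 6.58, 7.09 and 8.29 in mutants, against 5.66, 6.29 and 7.17 in controls, a difference of 0.94 (95% interval -0.25 to 2.14, adjusted p = 0.417) and mutants 1 and 2 lay within the control range. Its 5 probe sets ran from 0.62 to 1.84, all positive, and 1 of them had mutants entirely above controls.

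**Figure D3:**
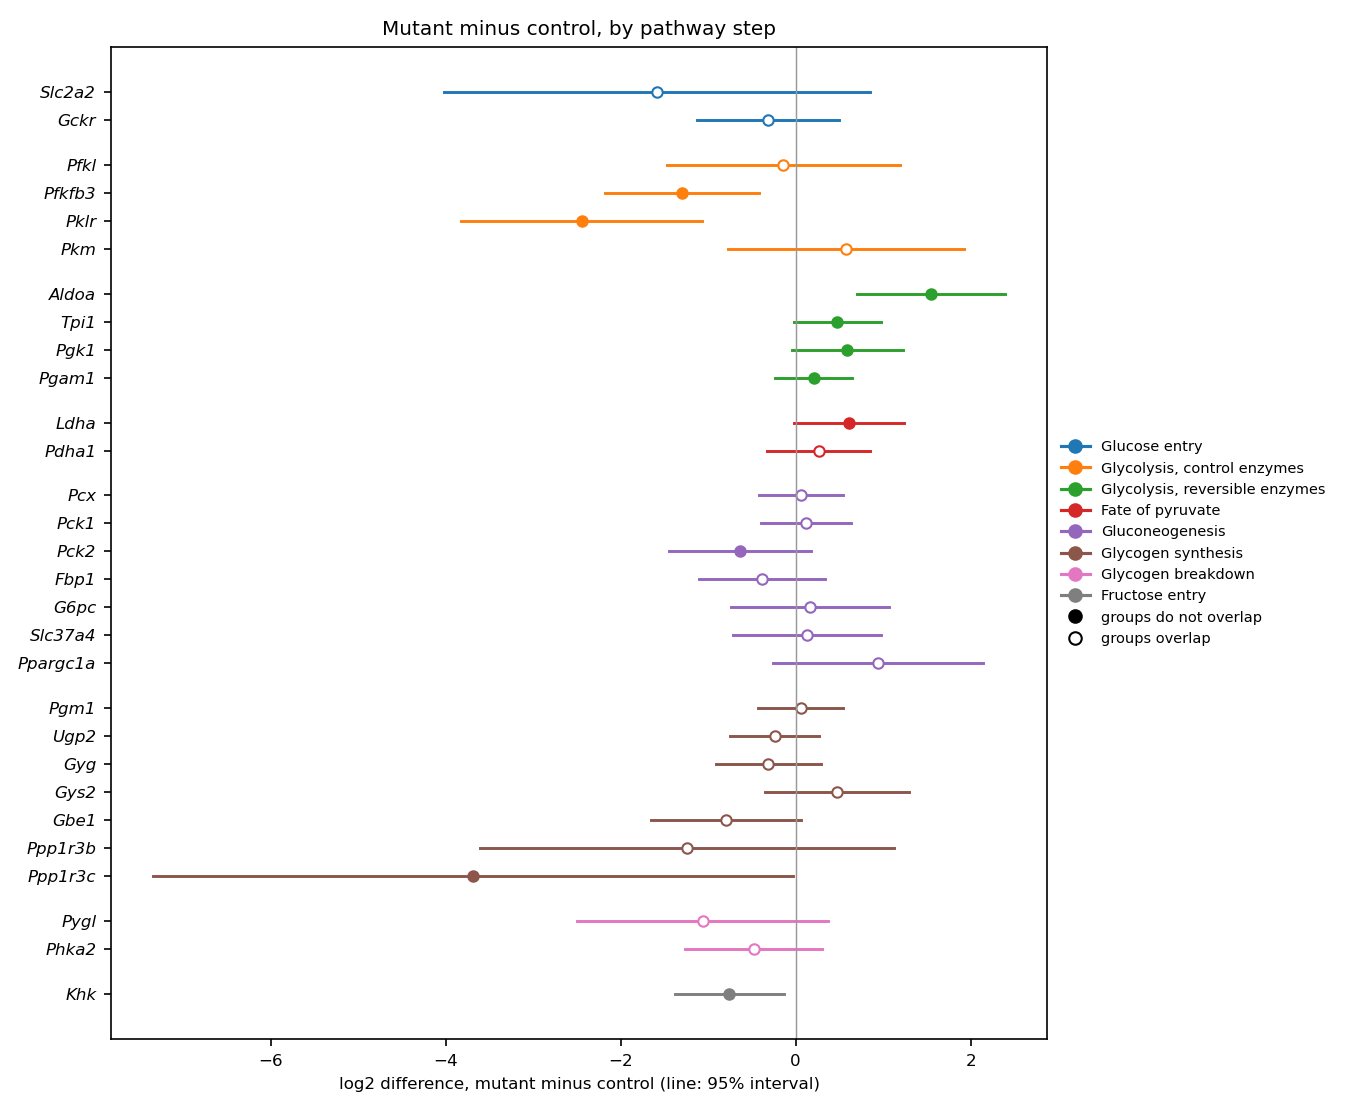
Log2 difference, mutant minus control, with its 95% interval from limma for each of the 29 genes, coloured by pathway step. Filled points mark the 10 genes whose groups do not overlap; the intervals of Pklr, Pfkfb3, Ppp1r3c and Khk lie below 0 and that of Aldoa above it before adjustment.

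Of the 9 glycogen genes measured, 7 had negative differences, against 6033 of all 13144 genes tested. Ppp1r3c, which targets protein phosphatase 1 to glycogen and so favours synthesis, read 0.65, 7.79 and 6.43 in mutants, against 8.24, 9.38 and 8.31 in controls. Mutant 1 was close to the floor of the scale and the other mutants lay below all controls. The difference was -3.69 ± 1.58 (adjusted p = 0.362) and -1.54 without mutant 1, and the second probe set, at -2.96, overlapped. Ppp1r3b, the liver targeting subunit, was at 5.23, 9.53 and 9.15 in mutants, against 8.48, 9.37 and 9.79 in controls. Here only mutant 1 was low (difference -1.24, adjusted p = 0.560), and without it the difference was 0.13.

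Gys2, the liver glycogen synthase, was at 10.29, 8.93 and 9.75 in mutants, against 9.32, 8.85 and 9.38 in controls (difference 0.48, 95% interval -0.35 to 1.30, adjusted p = 0.523, and a difference of 0.16 without mutant 1). Gys2 and Pgm1 were the glycogen genes with a positive difference. Gbe1, the branching enzyme, was at 6.19, 7.27 and 7.54 in mutants, against 7.84, 8.02 and 7.52 in controls (difference -0.79, adjusted p = 0.378). It was -0.39 without mutant 1 and -0.0050 with the index. The other synthesis genes were Pgm1 and Ugp2, which make the glucose donor, and Gyg, which primes the glycogen chain. Their differences were 0.06, -0.24 and -0.31 with overlapping groups, and 0.18, -0.10 and -0.48 without mutant 1. The other 4 Ugp2 probe sets gave -0.48 to -0.99, and 2 of them had mutants entirely below controls. Pygl, the liver glycogen phosphorylase that releases glucose from glycogen, read 8.16, 10.91 and 10.33 in mutants, against 10.79, 10.83 and 10.96 in controls. Mutant 2 lay among the controls (difference -1.06, adjusted p = 0.437), and the difference was -0.24 without mutant 1. Phka2, a regulatory subunit of phosphorylase kinase, came to -0.48 (adjusted p = 0.502), or -0.13 without mutant 1.

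Khk, ketohexokinase, brings fructose into the pathway below phosphofructokinase. It was at 8.99, 9.78 and 9.60 in mutants, against 10.06, 10.09 and 10.50 in controls. The groups did not overlap, and the difference was -0.76 ± 0.27 (95% interval -1.38 to -0.14, adjusted p = 0.331), or -0.52 without mutant 1.

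Probe sets placed along 1 transcript gave different answers for the same gene. Pcx control probe sets on the array were -0.13 at the 3′ end, where mutants read 8.51, 8.67 and 8.64 against 8.73, 8.51 and 8.95 in controls. At the 5′ end they read 4.40, 6.0 and 5.25 in mutants, against 6.43, 6.36 and 6.14 in controls, a difference of -1.10. Mutant 1 was the lowest at the 5′ end and lay with the others at the 3′ end. The 2 middle probe sets gave -1.06 and -0.82.

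**Figure D4:**
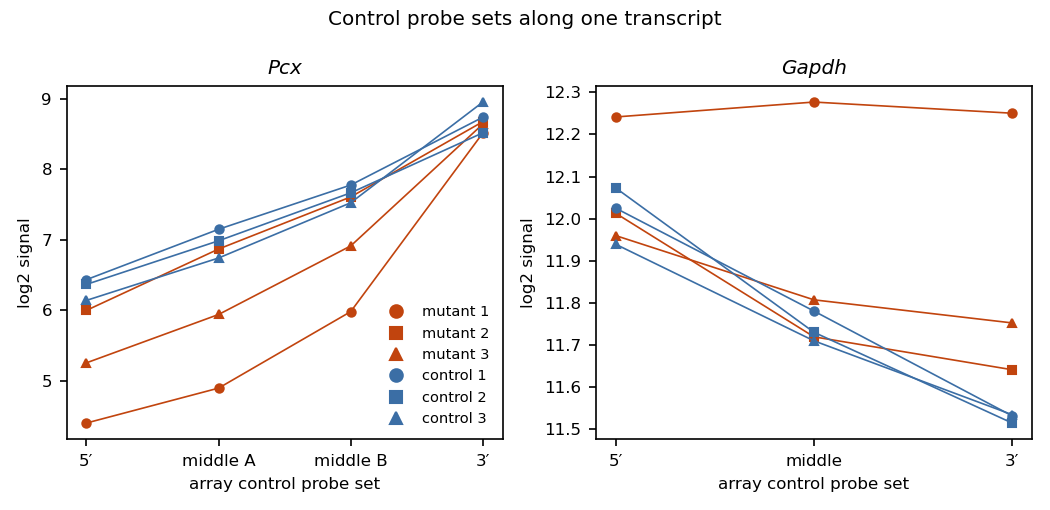
Log2 signal of array control probe sets along the Pcx and Gapdh transcripts, 1 line per array. For Pcx the mutants fan out toward the 5′ end, with mutant 1 at 4.40, and meet the controls at the 3′ end; for Gapdh mutant 1 is highest at each position.

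Setting the 3′ to 5′ index as a covariate moved the differences of several genes past 0. Slc2a2 came to 1.02, Ppp1r3b to 1.12, Ppp1r3c to 0.68 and Pygl to 0.50, while Pklr, Pfkfb3, Khk, Aldoa and Tpi1 kept their sign at -0.92, -0.68, -0.42, 0.69 and 0.24. The index was 2.18, 1.18 and 1.57 in mutants, against 0.91, 0.78 and 1.22 in controls, so that index and group can be told apart only in part, and no gene of the set had an adjusted p under 0.929.

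**Figure D5:**
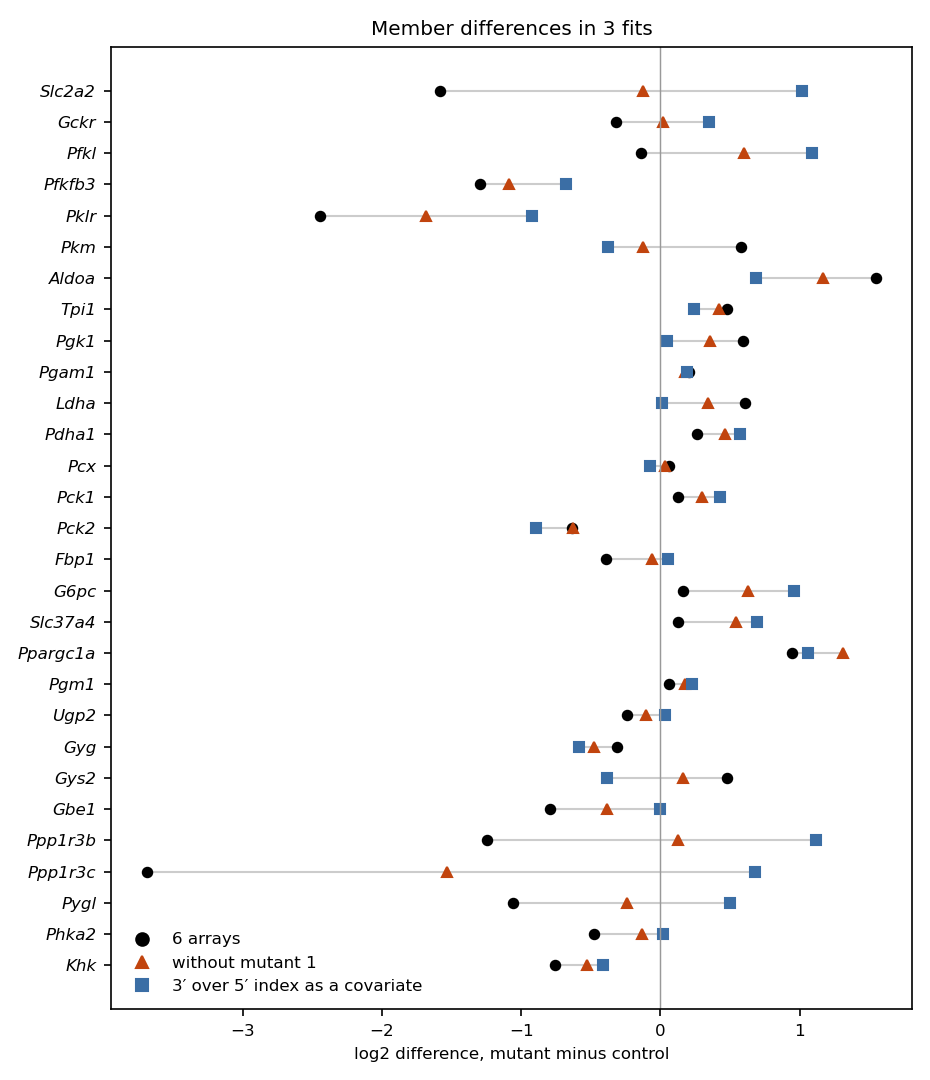
Log2 difference, mutant minus control, of each gene in the fit of 6 arrays (circles), without mutant 1 (triangles) and with the 3′ to 5′ index as a covariate (squares). The 3 values of Pklr and Pfkfb3 lie below 0 and those of Aldoa and Tpi1 above it, while Slc2a2, Ppp1r3b, Ppp1r3c and Pygl cross 0.

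Other genes of carbohydrate metabolism, in lists drawn up by pathway, had no call after adjustment either. Their counts at an unadjusted p of 0.05 stand against 7.36% of all genes higher in mutants and 7.01% lower, with a median of 0.06 over all genes. Without mutant 1 those shares were 7.69% and 7.34%, and with the index 2.68% and 3.04%. Of 20 further glycolysis and hexokinase genes tested, 2 passed the unadjusted threshold as higher in mutants and 2 as lower, and the median was 0.17. Those counts were 3 and 3 without mutant 1 and 0 and 2 with the index. They include Aldoc, a second aldolase gene, at -1.53 (adjusted p = 0.165), the hexokinase gene Hk3 at -1.31 (adjusted p = 0.2), and Eno3, the muscle enolase, at 1.01 (adjusted p = 0.326). Of 22 further glycogen genes 3 were higher and 2 lower (4 and 3 without mutant 1, 1 and 1 with the index), with a median of 0.14. Stbd1, which tethers glycogen to membranes, read 4.11, 7.38 and 6.23 in mutants, against 8.81, 8.62 and 8.64 in controls (-2.78, adjusted p = 0.254). Ppp1r3g, another glycogen targeting subunit, was the reverse, at 9.97, 7.0 and 7.57 in mutants, against 5.51, 5.09 and 6.16 in controls (2.59, adjusted p = 0.285). Phkb, a subunit of phosphorylase kinase, was at -1.55 (adjusted p = 0.344), and at -0.78 without mutant 1. Without mutant 1 Ppp1r3g was at 1.70.

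Of 27 genes of pyruvate, lactate and the malate-aspartate shuttle, 4 were higher and 5 lower (4 and 4 without mutant 1, 1 and 1 with the index), with a median of -0.13. Pdk4, the kinase that inactivates pyruvate dehydrogenase in fasting, was at 11.58, 7.64 and 8.46 in mutants, against 3.91, 5.24 and 6.64 in controls (3.96, adjusted p = 0.270). Got1, the cytosolic aspartate aminotransferase, differed by 1.76 (adjusted p = 0.182) and Me1, the cytosolic malic enzyme, by -1.48 (adjusted p = 0.285). Among 12 genes induced in fasting liver, 6 passed the unadjusted threshold as higher and 0 as lower, against 7.36% and 7.01% of all genes. The median was 1.2, against 0.06 over all genes. The counts were the same without mutant 1 (7.69% and 7.34% of all genes), and 3 and 0 with the index (2.68% and 3.04%). Differences were positive in 10 of the 12 and negative in 2, Sesn3 (-0.96) and Fgf21 (-0.40). Some genes are in several lists. Got1 and Pdk4 also count among the pyruvate, lactate and shuttle genes, Irs2 among the regulators and Tat among the hepatocyte markers. Igfbp1, an insulin-repressed binding protein, had 13.52, 12.79 and 13.17 in mutants, against 11.21, 11.70 and 11.69 in controls (1.62, adjusted p = 0.0888, and a difference of 1.44 with adjusted p = 0.0340 without mutant 1), and Tat, tyrosine aminotransferase, differed by 0.88 (adjusted p = 0.250). No gene of the lists passed the adjusted test with all 6 arrays, and the lists were compared with no test of their own. Of the regulators, 6 of 27 were higher and 0 lower, 7 and 1 without mutant 1, and 2 and 2 with the index. Their median was 0.13, against 0.06 over all genes, with 14 positive and 13 negative differences. Mlxipl, which encodes ChREBP, differed by 0.14 (adjusted p = 0.886, and a difference of -0.17 without mutant 1), the insulin-restrained factor Foxo1 by 0.68 (adjusted p = 0.353) and the glucagon receptor gene Gcgr by -0.06 (adjusted p = 0.919, and a difference of 0.10 without mutant 1). The pentose phosphate, fructose and galactose genes numbered 11, with 1 higher and 4 lower (1 and 4 without mutant 1, 0 and 1 with the index) and a median of -0.49. Tigar, a fructose-2,6-bisphosphatase, was at 0.96 (adjusted p = 0.301), Pgd, of the oxidative pentose phosphate branch, at -0.79 (adjusted p = 0.354) and the epimerase gene Rpe at -1.79 (adjusted p = 0.355, and a difference of -0.90 without mutant 1).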

How the data were processed

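Signals of 6 arrays were deposited as intensity on a linear scale, made by the authors with the GCOS software per the labels' protocols; no source used here gives its settings or a genome build. Of 45101 probe sets, 64 array controls were left out. Each array was scaled to the common mean of its signals with 2% trimmed at each end (37.3 to 69.9 before scaling), floored at 1 and put on the log2 scale. Probe sets in the lower 40% by mean were left out, and 27022 were tested with limma 3.58.1 in R 4.3.3 (lmFit, eBayes with trend), with Benjamini-Hochberg adjustment over all and a threshold of 0.05. A gene is its brightest kept probe set with a single symbol, 13144 genes in all. From each further list the text names up to 3 genes of smallest p and a few genes picked by role, and it gives every array for the set's genes that passed the unadjusted threshold or did not overlap and for others of central role. Each array is 1 mouse, and 3 arrays per group limit the precision. Background was the 95th percentile of chemosensory receptor probe sets. The steps were tested on simulated data. Members and lists were chosen with earlier results of these data known. No same-numbered pair of arrays was related (correlations of deviations -0.04, 0.02 and 0.04), so the fit was unpaired. Alternatives were other scalings, floors, filters and probe set rules, fits with array weights, covariates or a replicate block, and leaving out each array.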

Additional observations from a re-analysis of the deposited data

Results flagged for a closer look

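Gapdh, a glycolytic enzyme gene often used as a loading control, was outside the comparisons because its probe sets are array controls or carry several symbols. The array control at its 3′ end read 12.25, 11.64 and 11.75 in mutants, against 11.53, 11.51 and 11.53 in controls, a log2 difference of 0.35. A probe set shared with other symbols gave 0.31 and another 0.32, also with every mutant above every control, while one more of this kind gave 0.75 with overlap. They are listed because they show a difference in probe sets that were not tested as genes. The array controls at the 3′ and 5′ ends of Gapdh did enter the 3′ to 5′ index. The control at the 5′ end gave 0.06, and the middle one 0.19, so the size differed along the transcript. All these values are as scaled, by factors of 1.45, 0.93 and 1.27 for mutants 1 to 3. The factors for controls 1 to 3 were 0.98, 0.77 and 0.89. In the set, differences of this size depended on the scaling, as in Tpi1, at 0.48 as scaled and 0.03 unscaled. Gapdh was not compared unscaled.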

How the results depend on the processing

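No gene was called at an adjusted p under 0.05, and the count was also 0 under most alternatives. With array weights it was 6 (Pfkfb3, Pklr, Aldoa, Tpi1, Pgk1 and Ppargc1a), when 1652 of all genes were called. Those weights were 0.205, 0.464 and 2.92 for mutants 1 to 3, so the mutant side of that fit rested mostly on mutant 3. Leaving out 1 array gave 0 to 2 (Pklr without mutant 1, Pklr and Aldoa without mutant 2). Genes with unadjusted p under 0.05 and mutants higher, 1 as reported, numbered 2 under quantile scaling, a pseudocount of 32, a floor of 16, the index covariate and the replicate block. They numbered 3 with the Actb covariate and with the mean over probe sets, 8 with array weights, 0 without x_at and s_at probe sets, and 1 to 6 when 1 array was left out. Those with mutants lower, 4 as reported, were 7 in the deposited scaling, 2 without trend, 0 with the index, 1 with Actb, and 2 to 6 without 1 array. Non-overlapping genes with mutants higher, 5 as reported, were 1 in the deposited scaling and 1 after median centring, and those with mutants lower, 5 as reported, were 11 and 9. Leaving out 1 array gave 5 to 11 higher and 5 to 9 lower. The median difference was -0.59 in the deposited scaling, 0.19 with the index and 0.18 with Actb. The replicate block changed no other call.

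Signs reversed as follows. In the deposited scaling: Pgam1 -0.24, Pdha1 -0.19, Pcx -0.39, Pck1 -0.33, G6pc -0.29, Slc37a4 -0.32 and Pgm1 -0.39. After median centring: Pgam1 -0.0227, Pcx -0.17, Pck1 -0.11, G6pc -0.0688, Slc37a4 -0.10 and Pgm1 -0.17. Under quantile scaling Pck1 was -0.16. With array weights Pfkl was 0.59, Pkm -0.30 and Fbp1 0.0459. With the mean over probe sets Pfkl was 0.26, Pck1 -0.43 and Pgm1 -0.36. With the index: Slc2a2 1.02, Gckr 0.35, Pfkl 1.09, Pkm -0.37, Pcx -0.0737, Fbp1 0.0554, Ugp2 0.0324, Gys2 -0.38, Ppp1r3b 1.12, Ppp1r3c 0.68, Pygl 0.50 and Phka2 0.0202. With Actb: Slc2a2 1.01, Gckr 0.30, Pfkl 1.13, Pkm -0.46, Pcx -0.0678, Fbp1 0.10, Ugp2 0.0105, Gys2 -0.30, Gbe1 0.0044, Ppp1r3b 1.13, Ppp1r3c 0.56, Pygl 0.46 and Phka2 0.0413. Leaving out 1 array gave Gckr -0.68 to 0.0151, Pfkl -0.58 to 0.60, Pkm -0.12 to 1.13, Ppp1r3b -2.02 to 0.13, Pck1 -0.0104 to 0.30, G6pc -0.0898 to 0.63, Pgm1 -0.0129 to 0.18, Pcx -0.0493 to 0.16 and Slc37a4 -0.20 to 0.54. The cause was not tested. Aldoa has no value without x_at probe sets, since all of its own are of that type. Values of the further lists without mutant 1 and with the index, and marker sums without scaling, were chosen after seeing the data. Of all single values, 515 kept direction and side of the threshold, 55 reversed and 9 passed it newly.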

Other observations

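Target genes of hypoxia-inducible factors that are not in the set had positive differences in 11 of 16, against 54.1% of all genes. Of the 16, 3 passed an unadjusted p of 0.05 as higher in mutants and 1 as lower, against 7.36% and 7.01% of all genes, and the median was 0.51. Ddit4, a stress-induced inhibitor of mTORC1, was at 9.69, 8.81 and 9.35 in mutants, against 6.75, 7.75 and 6.73 in controls (2.20, limma adjusted p = 0.0901). Bnip3, a mitophagy receptor, differed by 1.49 (adjusted p = 0.203), while Pdk1, a kinase of pyruvate dehydrogenase, differed by -1.30 (adjusted p = 0.309). Without mutant 1 the counts were 4 and 1, and with the index 4 and 0.

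Of the regulators, the clock repressor gene Cry1 differed by 1.91 (adjusted p = 0.277), Txnip, a glucose-responsive gene, by 1.64 (adjusted p = 0.292), and Irs2, an adaptor of the insulin receptor, by 1.72 (adjusted p = 0.326). Without mutant 1 the Irs2 difference was 0.99.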
